A study of Mus musculus with 4 samples.

Results

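Rab GTPases are small membrane-bound switches that give each organelle its identity and steer vesicles between the endoplasmic reticulum (ER), the Golgi, endosomes and the plasma membrane. Each Rab cycles between a GDP-bound form and a GTP-bound form, which recruits effector proteins, and lipid (prenyl) groups on cysteines at its end hold it in the membrane. In endothelial cells, Rabs serve the uptake and recycling of receptors, junction proteins and transporters, and Rab11 on recycling endosomes works through the Rab11 family interacting proteins. The genes described here were chosen by symbol: any Rab followed by a number and at most a single letter, together with *Rab11fip1* to *Rab11fip5*. The rule used no expression value. It found 49 genes, 44 Rab GTPases and 5 Rab11 family interacting proteins, among the 12693 gene symbols with values. The mouse annotation holds 64 symbols of this pattern, and the other 15, which include the Rab11 relative *Rab25*, *Rab27a* and *Rab27b*, were not analysed here.

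The study asked what the loss of the forkhead transcription factor FOXQ1 does to gene expression in brain endothelial cells (ECs). It compared 2 wild-type samples with 2 *Foxq1* conditional knockout (cKO) samples from C57BL/6 embryos at embryonic day 18. The cKO genotype is FOXQ1fl/fl;Tie2-Cre, so that Cre driven by Tie2, which is active in endothelial cells and also in blood lineages, deletes floxed *Foxq1*, and the methods describe the controls as littermates without Cre. Per the methods the cells were sorted from cerebral cortex by CD31, whereas the labels name brain only. The labels do not say whether the samples came from separate embryos, so p-values measure the spread between these samples, which may be technical.

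The samples held 15827166 to 21466436 reads on listed genes, and the 49 genes took between 0.445% and 0.496% of them. *Foxq1* itself stood at 353 and 297 normalized counts in wild-type and at 5.44 and 32.6 in cKO samples (log2 fold change -4.47, limma, unadjusted p = 0.00507, adjusted p = 0.857), as its labels say. All 12 endothelial markers were listed, with a summed level of 381805 and 353628 in wild-type and 305582 and 343846 in cKO samples. Markers of other cells were present as well: 8 of 10 pericyte and smooth muscle markers summed to between 131430 and 142893, most of it *Rgs5*, and *Acta2* and *Tagln* were not among the listed genes. The 10 microglia and macrophage markers summed to 9833 and 12212 in wild-type and to 7228 and 7869 in cKO samples. The 13 listed neural markers of 15 summed to 18930 and 19015 against 15845 and 17576, and 6 of 7 erythroid markers to between 15683 and 20673 with overlapping groups. The endothelial, microglial and neural sums were thus each lower in both cKO samples, and their part in the values that follow was not tested. Most of the endothelial sum was *Cldn5* and *Slc2a1*, and single markers did not all follow the sums. *Cdh5* and *C1qc* were higher in both cKO samples. *Kdr*, *Tek*, *Esam* and *Slco1a4* overlapped, and the other endothelial markers were lower. Most microglial and neural markers overlapped, while *Cx3cr1*, *C1qb*, *Csf1r*, *Map2*, *Pax6* and *Slc1a3* were lower in both. In such bulk samples, fewer cells of a type and less RNA per cell cannot be told apart.

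The cysteines that carry the lipid anchor can be read from the ends of the coding sequences, and a few are shown for the genes that the results turn on. The last 18 bases of the longest coding sequence in the GENCODE M21 annotation (GRCm38) are given 5′ to 3′ with the stop codon, in lower case with cysteine codons in capitals.
*Rab1b*: agcggtggcTGCTGCtag
*Rab11a*: TGCTGTcagaacatctaa
*Rab11b*: TGCTGCcagagcctgtga
*Rab7*: gaaagcTGCagtTGTtga
*Rab5b*: cagTGTTGTagcaactga
*Rab3d*: agcagcTGCagcTGTtag
*Rab8a*: cggTGCagtctcctgtga
*Rab40c*: aacTGCaagatctcctag
*Rab11fip1*: aaggccggaaagatgtaa
Of the 44 Rab GTPases, 37 (84.1%) had 2 cysteine codons among their last 5, in the arrangements seen in *Rab1b* (side by side at the end), *Rab7* (separated by 1 codon) and *Rab5b* or *Rab11a* (followed by further codons). The other 7 had a single such codon, as in *Rab8a* and *Rab40c*. Among the other listed genes with a complete coding sequence, 72 of 11246 (0.640%) had at least 2. The Rab11 family interacting proteins, which are not prenylated and reach membranes by binding Rab11, had 0 such codons.

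Levels were compared between genes as normalized counts per kb of exon. These are levels of whole samples, in which markers of other cells were present. The Rabs of the early secretory pathway were the highest: *Rab1b* and *Rab1a*, which drive ER-to-Golgi transport, averaged 8824 and 3980 per kb in wild-type samples. *Rab11a* (2398), the late endosomal *Rab7* (1812), the early endosomal *Rab5b* (1384), the exocytic *Rab8a* (1349), *Rab11b* (1224) and the Golgi Rab *Rab6a* (930) followed. *Rab1a* and *Rab1b* together held 42.7% and 39.6% of the summed level of the 49 genes in wild-type and 36.2% and 39.4% in cKO samples. At the other end, *Rab11fip4*, *Rab43* and *Rab39b* averaged 4.89, 5.52 and 9.70 per kb in wild-type samples. *Rab43* shares 4164 of its 5386 bp of exon with *Gm45140* on the same strand, and *Rab39b* shares 634 bp with the antisense gene *Gm15063*. Reads from those stretches cannot be assigned here, so both low levels are uncertain. The order of neighbours was not always resolved, since *Rab5b* ranged from 1115 to 1652 per kb between wild-type samples and so spanned the values of *Rab8a* and *Rab11b*. The order also depends on the length used, here all annotated exons of a gene together. For *Rab7* this is 2610 bp, against 1275 bp in the transcript with the longest coding sequence, and for *Rab18* 6533 against 729 bp. The ranking was not repeated with that shorter length. *Rab1b* stood above *Rab1a*, and *Rab1a* above *Rab11a*, in each of the 4 samples.

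**Figure D1:**
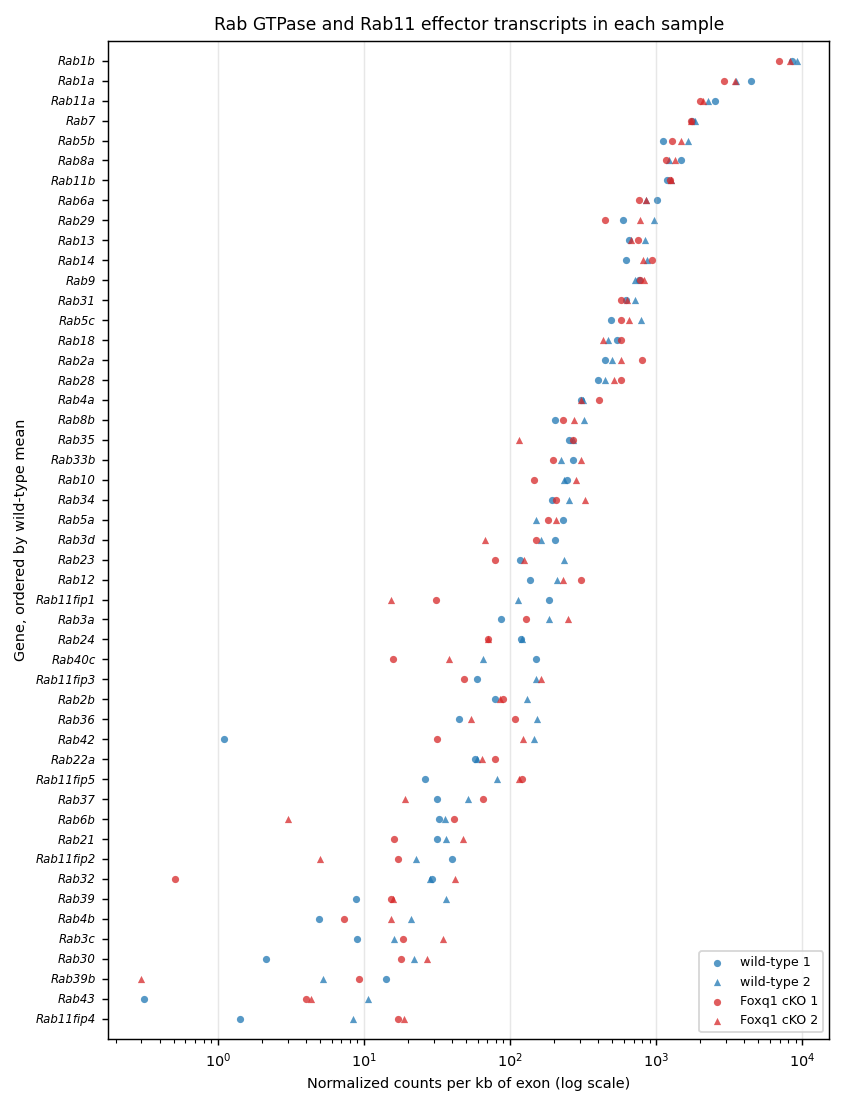
Normalized counts per kb of exon (horizontal log axis) for the 49 genes, ordered by their wild-type mean; blue marks wild-type and red *Foxq1* cKO samples, with circles for replicate 1 and triangles for replicate 2. *Rab1b* and *Rab1a* lead in all 4 samples, the points of a gene lie close together at the top, and they spread over more than a decade for *Rab42*, *Rab32* and *Rab39b* in the lower part.

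Across the 49 genes, the group comparison gave few differences. All 49 had an average above the minimum of 10 normalized counts per sample and were tested among 12472 genes with limma on log2(normalized count + 1). Fold changes are differences of group means on that log scale, so for low genes with uneven replicates they can be larger or smaller than the ratio of the mean counts. At an unadjusted p under 0.05, 0 of the 49 were higher in cKO samples, against a background of 2.17% of all genes tested. On the same threshold 1 was lower, *Rab11fip1*, against a background of 3.05%, and this 2.04% of the members in either direction stands beside 5.22% of all genes. After Benjamini-Hochberg adjustment over all genes 0 members passed, as did 0% of all genes, and the smallest adjusted p of a member was 0.857. Without wild-type replicate 2, limma gave 4 members higher (background 7.89%) and 3 lower (background 4.75%) at an unadjusted p under 0.05, in all 14.3% of the members beside 12.6% of all genes. Without any other single sample it gave 0 higher and 2 lower, 4.08% of the members, beside 6.61% of all genes without wild-type replicate 1, 2.22% without cKO replicate 1 and 3.85% without cKO replicate 2. The same 4.08% was reached with quantile normalization (background 5.18%) and without the variance trend (background 5.41%). On read counts recovered from the deposited values, edgeR's quasi-likelihood test gave 1 member at an unadjusted p under 0.05 (background 4.98%). DESeq2 gave 2, *Rab11fip1* and *Rab40c* (background 6.49%), of which *Rab11fip1* also passed after adjustment (background 0.465%). The values of the groups did not overlap for 8 members higher in both cKO samples (16.3%, background 18%) and for 9 lower in both (18.4%, background 18%), shares near those of all genes. The median log2 fold change of the 49 was -0.07 beside 0.01 for all genes tested, with 20 positive and 29 negative values. It moved between -0.25 and 0.08 when a sample was left out, with positive values without wild-type replicate 2 (0.08) or without cKO replicate 1 (0.04).

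*Rab11fip1* encodes Rab11-FIP1, also known as Rab coupling protein, which binds Rab11 and Rab4 and takes part in the recycling of receptors and integrins to the surface. It is on the minus strand of chromosome 8 (GRCm38, chr8:27138773-27174646). Its level was 1489 and 903 normalized counts in wild-type and 250 and 123 in cKO samples. The lower wild-type sample was thus far above the higher cKO sample, and the mean of cKO samples was 15.6% of that of wild-type samples. In limma, this was a log2 fold change of -2.72 (SE 0.534, 95% interval -4.02 to -1.41, n = 2 per group, unadjusted p = 0.00217, adjusted p = 0.857). DESeq2 gave an adjusted p of 0.000187 and edgeR 0.937. With any sample left out, the log2 fold change of *Rab11fip1* stayed between -3.23 and -2.21. Its exons share 452 bp with exons of the antisense gene *4933416M07Rik*. Whether counting used strand is not given in the sources used here, so reads from that stretch cannot be assigned. The summed endothelial, microglial and neural markers were also lower in both cKO samples, by smaller margins, and their part in this difference was not tested.

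The other interacting proteins split in direction. *Rab11fip2*, the partner of Rab11 and myosin Vb, had 243 and 139 normalized counts in wild-type and 105 and 30.5 in cKO samples. Both cKO values were below both wild-type values, and the log2 fold change of -1.68 did not pass the test (95% interval -3.87 to 0.51, unadjusted p = 0.110 and adjusted p = 0.857, limma). *Rab11fip5*, also called Rip11 or Gaf-1, had 161 and 496 in wild-type and 739 and 709 in cKO samples. *Rab11fip4*, a class II protein that is best known from neural tissue, had 10.1 and 59.8 in wild-type and 122 and 135 in cKO samples. In both genes the cKO samples were close together and above both wild-type samples, which differed several-fold from each other. Their log2 fold changes were 1.35 (95% interval -0.14 to 2.84, unadjusted p = 0.068, limma) for *Rab11fip5* and 2.32 (-0.32 to 4.95, unadjusted p = 0.075) for *Rab11fip4*. Without wild-type replicate 2, the sample with the higher wild-type value, they became 2.16 (unadjusted p = 0.00363) and 3.54 (unadjusted p = 0.0103), with adjusted p of 0.209 and 0.260, in a fit that called 12.6% of all genes at that threshold. Without wild-type replicate 1 they became 0.54 (unadjusted p = 0.236, limma) and 1.09 (unadjusted p = 0.245). On recovered reads, edgeR gave 1.14 for *Rab11fip5* and 1.88 for *Rab11fip4*. *Rab11fip3*, which carries Rab11 to the midbody and the centrosome, had 345 and 871 against 281 and 944, so that the replicates differed and the groups overlapped (log2 fold change -0.09, 95% interval -1.87 to 1.69). Its sign was positive in edgeR and DESeq2 (both 0.01).

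Rab11 itself showed no such differences. *Rab11a*, the ubiquitous isoform on recycling endosomes, had 5935 and 5269 normalized counts in wild-type and 4670 and 4860 in cKO samples. *Rab11b*, its close relative, had 7223 and 7735 in wild-type and 7563 and 7667 in cKO samples. *Rab11a* was lower in both cKO samples by a small margin (log2 fold change -0.23, SE 0.158, 95% interval -0.62 to 0.15, unadjusted p = 0.192, limma), and *Rab11b* overlapped (0.03, -0.31 to 0.36). For both genes a change of 2-fold, 1 on the log2 scale, lay outside the 95% interval.

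**Figure D2:**
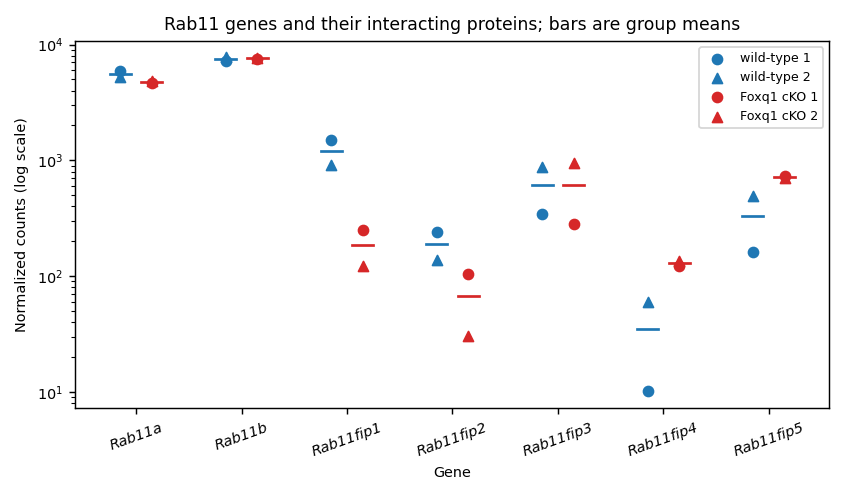
Normalized counts (vertical log axis) of *Rab11a*, *Rab11b* and the 5 interacting proteins; points are single samples (blue wild-type, red *Foxq1* cKO, circles replicate 1, triangles replicate 2) and bars are group means. *Rab11fip1* and *Rab11fip2* are lower and *Rab11fip4* and *Rab11fip5* higher in both cKO samples, while *Rab11a* and *Rab11b* lie almost level.

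Expressed per kb, the 5 interacting proteins summed to 313 and 375 in wild-type and to 235 and 318 in cKO samples, and these sums overlapped. Their composition differed more than the sum. *Rab11fip1* made up 59.3% and 30.03% of it in wild-type and 13.3% and 4.83% in cKO samples. *Rab11fip5* made up 8.41% and 21.6% in wild-type and 51.5% and 36.5% in cKO samples. *Rab11fip4* went from 0.452% and 2.23% to 7.27% and 5.95%, while the shares of *Rab11fip2* and *Rab11fip3* overlapped between groups. The leading protein gene was thus *Rab11fip1* in wild-type replicate 1, *Rab11fip3* in wild-type replicate 2 and cKO replicate 2, and *Rab11fip5* in cKO replicate 1. Shares within a family are not independent of each other, and no test was made on them.

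Most Rab families kept a steady composition by comparison. *Rab1b* held between 65.7% and 72.2% of the *Rab1* level in the 4 samples, *Rab5b* between 60.8% and 63.8% of *Rab5*, *Rab8a* between 79.1% and 87.9% of *Rab8*, and *Rab6a* at least 94.8% of *Rab6*. *Rab4a*, which acts in rapid recycling, held at least 93.8% of *Rab4*, and *Rab2a*, an ER-to-Golgi Rab, 84.8% and 79.3% in wild-type and 89.9% and 87.0% in cKO samples. *Rab4b* shares 1016 of its 1192 bp of exon with *Gm21983* on the same strand. *Rab2b* shares 2059 of its 2906 bp of exon with *Gm43766*, and *Rab6a* 403 bp with *Mrpl48*, both on the opposite strand. How such shared reads were counted is not given in the sources used here. The *Rab4*, *Rab2* and *Rab6* shares are therefore uncertain. *Rab11a* held 68.2% and 64.0% of *Rab11* in wild-type and 61.8% and 62.4% in cKO samples. The shares in the *Rab2* and *Rab11* families thus did not overlap between groups. In the *Rab3* family of secretory Rabs the composition varied within groups: *Rab3d* held 68.1% and 44.9% in wild-type and 50.8% and 19.3% in cKO samples, and *Rab3a*, the synaptic vesicle Rab, 28.9% and 50.6% against 43.0% and 70.8%. The *Rab39* and *Rab39b* levels were too low to rank, with *Rab39* between 38.4% and 98.1%. Coding sequences of Rab paralogues were 67.8% to 78.5% identical. Over the whole transcripts that carry them, the longest shared runs were from 14 bases (*Rab11a* and *Rab11b*) to 38 bases (*Rab1a* and *Rab1b*). Annotated pseudogenes of *Rab11b*, *Rab5a* and *Rab7* could take reads from their parent genes, which makes those levels less certain.

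**Figure D3:**
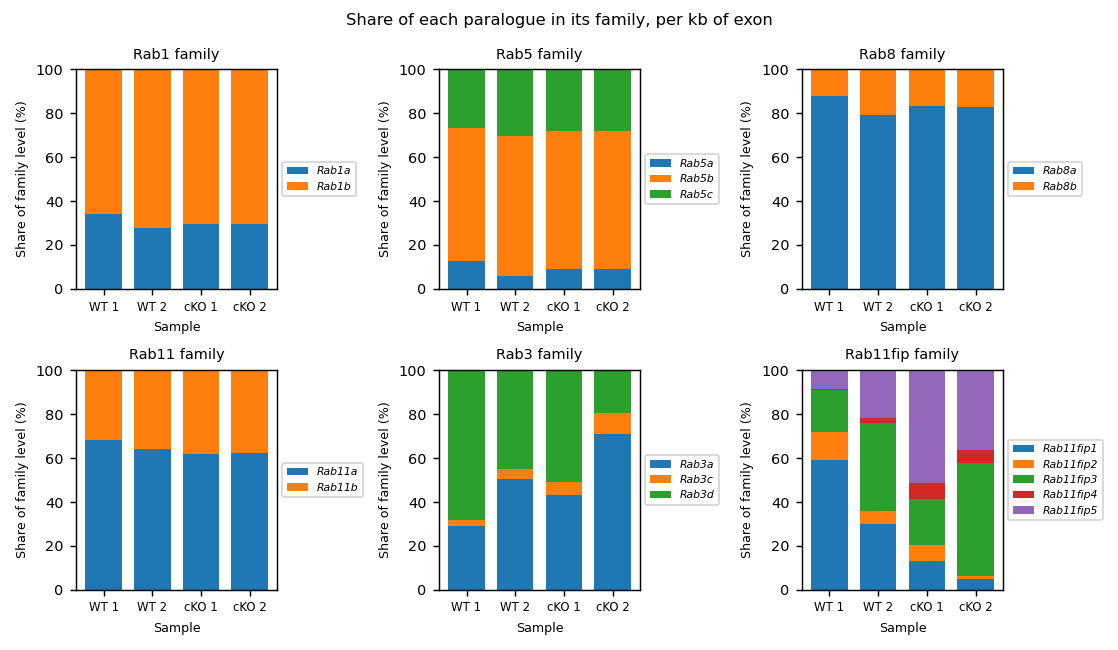
Share of each paralogue in the summed level of its family per kb of exon (vertical axis, percent), in stacked bars for each of the 4 samples. The *Rab1*, *Rab5*, *Rab8* and *Rab11* bars are alike in all samples, the *Rab3* bars vary within groups, and in the *Rab11fip* panel *Rab11fip1* goes from 59.3% and 30.03% in wild-type to 13.3% and 4.83% in cKO samples.

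The precision of these comparisons followed the level of the gene. The 16 members with a mean of at least 1000 normalized counts had a median absolute log2 difference between replicates of 0.232 in wild-type and 0.189 in cKO samples. The 18 members between 200 and 1000 had 0.607 and 0.653, and the 15 below 200 had 1.21 and 1.26. Over all listed genes, the medians in wild-type and cKO samples were 0.284 and 0.231 at 1000 or more. They were 0.594 and 0.463 between 200 and 1000, and 1.01 and 0.799 below 200. Below 1000 the members were thus further apart than all genes, most clearly in cKO samples. Replicates of a group were at least 2-fold apart in 13 of the 15 lowest members, in 8 of the 18 middle members and in 0 of the 16 highest. The share of all genes this far apart was not computed. In the highest class, every 95% interval of the log2 fold change fell between -0.82 and 1.24. The extremes in the lowest class rested on very few reads: *Rab32*, a Rab of lysosome-related organelles, had 1 read in cKO replicate 1 and 89 in cKO replicate 2, and *Rab42* had 1 read in wild-type replicate 1 and 112 in wild-type replicate 2. *Rab39b* had 1 read in cKO replicate 2 against 29 in cKO replicate 1. An absolute log2 fold change of at least 1 was seen in 11 members (22.4%, beside 15.96% of all genes tested), and the median SE was 0.465 for members and 0.496 for all genes.

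**Figure D4:**
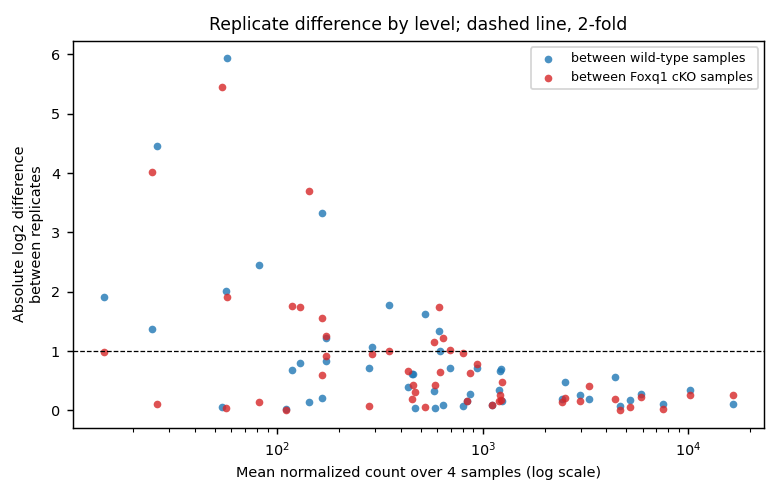
Absolute log2 difference between the replicates of a group (vertical axis) against the mean normalized count over 4 samples (horizontal log axis), with a blue point for wild-type and a red point for *Foxq1* cKO for each of the 49 genes. Above a mean of 1000 all points lie below the dashed line at 2-fold, whereas below 200 they reach well above it.

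By role, the 13 ER-to-Golgi and Golgi Rabs took 50.7% and 47.3% of the summed level per kb in wild-type and 45.9% and 47.3% in cKO samples. The median log2 fold change of these 13 was -0.20. *Rab1b* had 17082 and 18336 normalized counts in wild-type and 13868 and 16639 in cKO samples. Both cKO samples of *Rab1b* were below both wild-type samples, by a margin that did not pass the test (log2 fold change -0.22, SE 0.136, 95% interval -0.55 to 0.11, unadjusted p = 0.156, limma). *Rab2a* had 949 and 1064 against 1711 and 1225, higher in both cKO samples (log2 fold change 0.53, 95% interval -0.18 to 1.24, unadjusted p = 0.120). *Rab1a* was lower and the other 10 of this group overlapped, with log2 fold changes from -1.91 for *Rab39b* to 1.66 for *Rab30*.

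The 7 early endosomal Rabs included *Rab5b*, which controls fusion of early endosomes, at 3546 and 5254 normalized counts in wild-type and 4072 and 4672 in cKO samples. The cKO values of *Rab5b* lay between those of wild-type (log2 fold change 0.02, 95% interval -0.55 to 0.58). *Rab24*, an atypical Rab linked to autophagy and placed in this group, had 138 and 141 against 82.7 and 82.4 (log2 fold change -0.75, 95% interval -2.46 to 0.96, unadjusted p = 0.325, limma). Its replicates were nearly equal in each group, but its exons share 775 bp with *Prelid1* on the opposite strand, so the reads cannot be told apart without strand. *Rab22a* was higher in both cKO samples, and the remaining 4 overlapped between -0.27 and 0.05.

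The 11 recycling and exocytic Rabs had a median log2 fold change of -0.03. Besides *Rab11a*, described above, only *Rab12*, which directs the transferrin receptor to degradation, did not overlap in this group, with 284 and 433 normalized counts in wild-type and 637 and 476 in cKO samples. Its log2 fold change of 0.65 did not pass the test (95% interval -0.46 to 1.76, unadjusted p = 0.202, limma). The other 9, among them *Rab8a*, *Rab10*, *Rab13* and *Rab14* of surface delivery, overlapped between -0.57 and 0.26.

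*Rab7*, the Rab of late endosomes and lysosomes, was among the most even genes, with 4618 and 4840 normalized counts in wild-type and 4539 and 4521 in cKO samples. The difference was a log2 fold change of -0.06 (SE 0.155, 95% interval -0.44 to 0.32, unadjusted p = 0.704, limma), and a 2-fold difference lay outside the interval. *Rab9*, which returns receptors from late endosomes to the Golgi, was at 0.11 (95% interval -0.54 to 0.75). *Rab7* was lower and *Rab9* higher in both cKO samples, each by a small margin. *Rab42*, placed in this group, was too variable to compare.

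Among the 4 secretory Rabs, *Rab3d* had 808 and 644 normalized counts in wild-type and 598 and 268 in cKO samples, and *Rab3c* had 80.0 and 143 against 163 and 308. *Rab3d* marks secretory granules and *Rab3c* synaptic vesicles. The former was lower and the latter higher in both cKO samples, and neither passed the test. The log2 fold change was -0.85 for *Rab3d* (95% interval -2.07 to 0.38, unadjusted p = 0.141, adjusted p = 0.857, limma) and 1.06 for *Rab3c* (-0.68 to 2.81, unadjusted p = 0.188, adjusted p = 0.858, limma). *Rab29*, a partner of the kinase LRRK2, had 795 and 1307 against 606 and 1047 and overlapped (log2 fold change -0.36, 95% interval -1.37 to 0.66). *Rab28*, which is linked to cilia and photoreceptors, had 688 and 770 against 1002 and 896, higher in both cKO samples (log2 fold change 0.38, 95% interval -0.36 to 1.12, unadjusted p = 0.257). *Rab40c*, a SOCS-box Rab that recruits a ubiquitin ligase, had 388 and 166 in wild-type and 40.3 and 97.7 in cKO samples. Its groups did not overlap, and its log2 fold change of -2.00 lay at the edge of the test (SE 0.833, 95% interval -4.03 to 0.03, unadjusted p = 0.0528, adjusted p = 0.857, limma). *Rab40c* passed an unadjusted 0.05 in limma with quantile normalization (unadjusted p = 0.0447, adjusted p = 0.880), in limma without the variance trend (0.0474, adjusted p = 0.905), in DESeq2 (0.0245, adjusted p = 0.625) and in limma without wild-type replicate 2 (0.0267, adjusted p = 0.333). It did not pass in edgeR (unadjusted p = 0.0529), with the replicate number as a block (0.0734, limma) or with any other sample left out. Its log2 fold change was -1.39 without wild-type replicate 1 (unadjusted p = 0.204, limma) and -1.37 without cKO replicate 1 (unadjusted p = 0.213, limma).

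**Figure D5:**
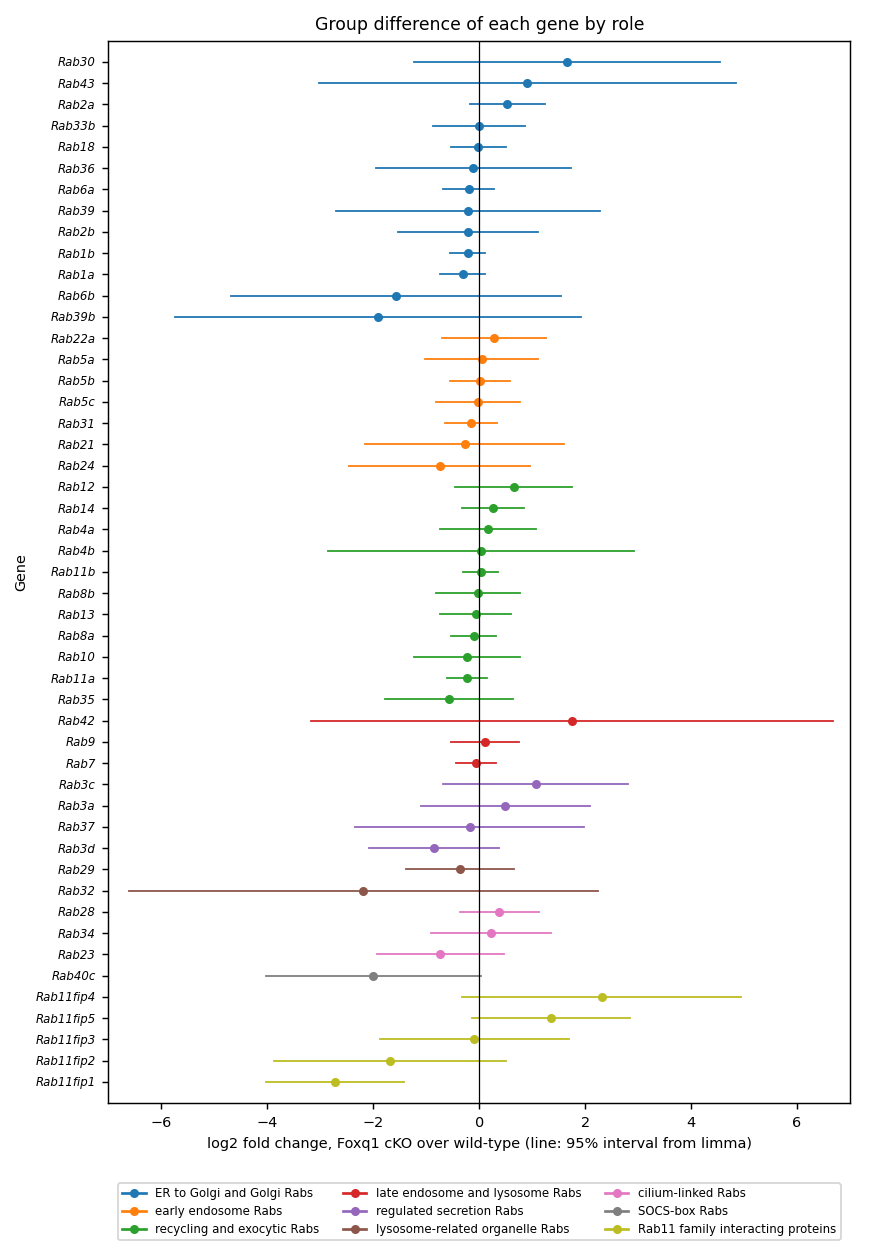
Log2 fold change of *Foxq1* cKO over wild-type (points, horizontal axis) with its 95% interval from limma (lines) for each of the 49 genes, coloured by role. Only the interval of *Rab11fip1*, -4.02 to -1.41, lies wholly on a single side of 0, and the intervals of genes at high level such as *Rab1b*, *Rab7*, *Rab11a* and *Rab11b* are the narrowest.

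The proteins that load, switch and read the Rabs were described from 5 lists of 136 genes, of which 120 were listed and tested. At an unadjusted p under 0.05, 2 were higher and 4 lower (5% beside 5.22% of all genes tested), and 0 passed after adjustment. The 8 genes of Rab escort, GDI and prenylation had a median log2 fold change of 0.07, the 32 exchange factors -0.16, the 33 GTPase-activating proteins 0.06, the 16 Rab11 partners and exocyst subunits -0.12, and the 31 other effectors 0.04. *Chm*, the Rab escort protein REP-1 that presents new Rabs for prenylation, had 972 and 1475 normalized counts in wild-type and 753 and 536 in cKO samples (log2 fold change -0.91, 95% interval -1.81 to -0.02, unadjusted p = 0.0463, limma). Both cKO values were below both wild-type values. *Ankrd27*, known as VARP, an exchange factor for Rab21 and effector of Rab32 and Rab38, had 1717 and 1901 against 1065 and 821 (log2 fold change -0.95, 95% interval -1.61 to -0.29, unadjusted p = 0.0123). *Dennd1b*, a Rab35 exchange factor, had 621 and 470 against 195 and 251 (log2 fold change -1.28, unadjusted p = 0.0353). These exchange factors were low in both cKO samples and close between replicates. *Fyco1*, the Rab7 effector that links late endosomes and autophagosomes to kinesin, had 3921 and 3102 against 2129 and 2049 (log2 fold change -0.74, unadjusted p = 0.0120). In the opposite direction, *Tbc1d24*, a TBC-domain protein, had 69.1 and 195 against 560 and 398 (log2 fold change 2.01, unadjusted p = 0.0275). *Exoc8*, the EXO84 subunit of the exocyst, had 229 and 77.8 against 462 and 410 (log2 fold change 1.70, unadjusted p = 0.0490). Wild-type replicates of *Tbc1d24* and *Exoc8* were more than 2-fold apart, and all 6 genes had an adjusted p of 0.857. The calls depended on single samples. Without wild-type replicate 1, 12 genes of the lists passed (10% beside 6.61% of all genes), among them *Chm*, *Ankrd27* and *Exoc8* of the 6. Without wild-type replicate 2, 17 passed (14.2% beside 12.6%), among them *Ankrd27*, *Dennd1b*, *Fyco1* and *Tbc1d24*. Without cKO replicate 1, 2 passed (1.67% beside 2.22%), with *Ankrd27* left of the 6, and without cKO replicate 2, 5 passed (4.17% beside 3.85%), with 0 of the 6. *Chm* also missed the threshold with quantile normalization, without the variance trend and with the replicate block, and *Exoc8* with quantile normalization, without the variance trend, without the filter on low values and in edgeR. *Dennd1b* missed it with the replicate block and *Fyco1* without the variance trend.

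The motif GTTTC, which the study linked to FOXQ1, was looked for on either strand in RefSeq promoters (GRCm38.p6), from 250 bases before to 50 after each start. It was present in 23 of 51 promoters of 41 members (45.1%) and in 45.0% of all 32851 promoters, and 8 members, among them *Rab11fip1*, *Rab11fip4* and *Rab2a*, had no entry and were not examined.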

How the data were processed

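RNA-seq of 2 wild-type and 2 *Foxq1* cKO samples was analysed. The authors deposited normalized values per gene, a signal that is whole reads divided by a size factor per sample (0.919 to 1.19): in every sample 100% of the values were whole multiples of a common step within 0.001 reads. The submitters' processing notes name TopHat2 2.0.12, Bowtie2 2.2.3, HTSeq 0.6.0 and mm9, without roles. The annotation and the strand setting are not given in the sources used here. Both the labels and the methods describe TRIzol extraction. The methods describe sorting by CD31, and the results section of the paper names Smart-seq2. Repeated lines were collapsed to 12693 symbols. Each listed gene had at least 1 read in every sample and 21 in total, so complete losses could not be measured. Depth was 15827166 to 21466436 reads, with a median of 477 per gene and sample. Reads from amplified libraries carry more error than counting alone, and how far these were amplified was not examined.

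Values were compared with limma 3.58.1 (lmFit, eBayes with trend, two-sided) in R 4.3.3 on log2(value + 1) for the 12472 genes averaging 10 or more, with Benjamini-Hochberg adjustment. With 2 against 2 samples an exact permutation test cannot go below p = 0.333. DESeq2 1.42.0 and edgeR 4.0.16 on recovered reads, other pseudocounts, filters and scalings, a replicate block and each sample left out were alternatives. Gene lengths, coordinates and coding ends are from GENCODE M21 (GRCm38), matched by identifier (12685 of 12701). Given by name were members with an unadjusted p under 0.05, members with groups that did not overlap, an absolute log2 fold change of at least 0.5 and a mean of at least 50, the Rab11 genes and their interacting proteins, the highest member per role, paralogue families and listed pathway genes with an unadjusted p under 0.05. *Rab30*, *Rab32*, *Rab39b*, *Rab42* and other members outside this rule were named for their spread or extremes after their values were seen. The members and lists were chosen with earlier results of these data known.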

Additional observations from a re-analysis of the deposited data

How the results depend on the processing

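The 18 members named by rule were recomputed under 10 alternatives that kept all 4 samples and with each sample left out. With all samples, 172 values kept their direction and their side of an unadjusted 0.05, 5 changed sign and 3 crossed to under 0.05. With a sample left out, 62 kept both, 7 changed sign and 3 crossed. The count of members lower at an unadjusted p under 0.05 was 2 with quantile normalization, 2 without the variance trend and 2 in DESeq2, the added gene each time being *Rab40c*, and it ranged from 2 to 3 with a sample left out. The count of members higher ranged from 0 to 4. The 4 appeared without wild-type replicate 2 and were *Rab11fip4*, *Rab11fip5*, *Rab30* and *Rab42*, in a fit that called 7.89% of all genes higher. The added lower members were *Rab23* without wild-type replicate 1, *Rab1a* and *Rab40c* without wild-type replicate 2, *Rab6b* without cKO replicate 1 and *Rab32* without cKO replicate 2. After adjustment 1 member, *Rab11fip1*, passed in DESeq2. The count of pathway genes ranged from 2 to 17 with a sample left out. The share of all genes called moved as well, from 2.22% without cKO replicate 1 to 12.6% without wild-type replicate 2. The cause of these moves was not tested.

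Log2 fold changes near 0 turned in sign for *Rab11fip3*, *Rab5b*, *Rab7* and *Rab11b*. *Rab11fip3* was at 0.0079 in edgeR and 0.0102 in DESeq2, and at -0.964 to 0.782 with a sample left out. *Rab5b* was at -0.0099 in edgeR, -0.00898 in DESeq2 and -0.268 to 0.299 with a sample left out. *Rab7* was at 0.0396 with quantile normalization, and *Rab11b* at -0.0226 to 0.0762 with a sample left out. *Rab29*, at -0.36 in the main fit, also turned, with -0.749 to 0.0378 when a sample was left out. The deviations of same-numbered samples were nearly uncorrelated across genes (0.0325). With 2 samples per group this cannot tell whether the replicate numbers pair the samples. A fit with the number as a replicate block gave 0 members higher and 1 lower, a median log2 fold change of -0.07 and 5 pathway genes. The length of the transcript with the longest coding sequence, an alternative chosen after seeing the data, moved the *Rab11fip1* share of its family in wild-type from 44.7% to 42.4% and left the leading paralogue of each family in wild-type as it was. Below a mean of 200 normalized counts, replicates were at least 2-fold apart in 13 of 15 members.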
